A study of Homo sapiens with 8 samples.

Results

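The genes described here are the subunits of the hypoxia-inducible factors (HIF) and the genes that sense oxygen for them. They were taken by name from the deposited count table, by a rule that uses no measured value but was written with earlier results of these data known: the HIF subunits HIF1A, EPAS1 and ARNT, the oxygen-sensing genes VHL, EGLN1, EGLN2, EGLN3 and HIF1AN, and the hypoxia-induced regulators KDM3A and CITED2. All 10 were found among the 13546 genes of the table. The tumours were xenografts of MDA-MB-231, an established human triple-negative breast cancer cell line, grown in nude mice, which lack a thymus and mature T cells but keep other leukocytes. In one group the injected cells were labelled CDK4KO, a knockout of the cell-cycle kinase CDK4 (4 libraries), and in the other they carried intact CDK4 and were labelled CDK4WT (4 libraries). Both groups share the parent line, the host strain and the culture in RPMI medium with HEPES, sodium pyruvate and serum. The labels do not say how CDK4 was disrupted, whether the knockout is 1 clone, how old the hosts were or whether each tumour came from its own mouse, so every p-value measures only the spread between these libraries.

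A HIF is a dimer of an oxygen-labile alpha subunit, HIF-1 alpha (HIF1A) or HIF-2 alpha (EPAS1), and the stable partner ARNT. With oxygen present, the prolyl hydroxylases EGLN1, EGLN2 and EGLN3 (also called PHD enzymes) hydroxylate the alpha subunits, the VHL protein binds the hydroxylated form and brings it to a ubiquitin ligase, and HIF1AN (FIH) hydroxylates an asparagine, which blocks binding of the coactivators p300 and CBP. When oxygen falls, the alpha subunits persist and induce their targets, among which are EGLN1, EGLN3, the histone H3K9 demethylase KDM3A and CITED2, a protein that competes with HIF for p300 and CBP. HIF is thus controlled largely at the protein level, which RNA counts do not measure, while the induced genes form a feedback arm whose RNA can be counted. EGLN1, EGLN3, KDM3A and CITED2 are called the feedback genes below, and values are given as CPM (read counts relative to the TMM-scaled library total) unless stated otherwise.

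Promoter sequences are shown first, because the feedback genes are known as HIF targets and HIF binds a core of ACGTG or GCGTG. Both were searched on both strands in a window of 300 bases, 250 before and 50 after each RefSeq start site (GRCh38.p14). Of the 10 genes, 9 matched the promoter table, and 6 of the 9 held a match in the window of their upstream-most start. Of all 35116 such windows of the same length, 48.4% held at least 1 match, 21.4% held ACGTG and 36.5% held GCGTG, so that a match is common. EGLN1 held ACGTG at 13 bases before its start site, KDM3A held GCGTG at 26 bases and HIF1A held GCGTG at 204 bases before theirs, while the letters were not in the EGLN3 window. ACGTG on both strands forms the palindrome CACGTG in the windows of CITED2 and EGLN2, where 1 place counts as 2 matches. The 250 bases before the start site are printed 5′ to 3′ on the strand of the gene, with the matched letters in capitals, for 3 feedback genes and for HIF1A as a subunit.
EGLN1 (chr1:231422288-231422537, minus strand): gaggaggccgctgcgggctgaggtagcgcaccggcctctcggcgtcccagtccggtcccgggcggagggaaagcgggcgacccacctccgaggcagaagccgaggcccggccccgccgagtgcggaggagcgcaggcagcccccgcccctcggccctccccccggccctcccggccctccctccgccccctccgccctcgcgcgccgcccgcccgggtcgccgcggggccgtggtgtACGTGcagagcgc
EGLN3 (chr14:33951075-33951324, minus strand): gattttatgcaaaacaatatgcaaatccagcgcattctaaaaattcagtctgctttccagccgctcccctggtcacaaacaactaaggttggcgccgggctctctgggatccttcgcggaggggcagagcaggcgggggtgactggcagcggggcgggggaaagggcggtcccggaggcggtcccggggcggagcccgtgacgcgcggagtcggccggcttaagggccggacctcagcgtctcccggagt
KDM3A (chr2:86441121-86441370, plus strand): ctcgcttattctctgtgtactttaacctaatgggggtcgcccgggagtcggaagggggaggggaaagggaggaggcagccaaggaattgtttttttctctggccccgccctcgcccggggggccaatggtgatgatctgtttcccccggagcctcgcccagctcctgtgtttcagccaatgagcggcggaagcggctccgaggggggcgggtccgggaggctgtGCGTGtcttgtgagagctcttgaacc
HIF1A (chr14:61695263-61695512, plus strand): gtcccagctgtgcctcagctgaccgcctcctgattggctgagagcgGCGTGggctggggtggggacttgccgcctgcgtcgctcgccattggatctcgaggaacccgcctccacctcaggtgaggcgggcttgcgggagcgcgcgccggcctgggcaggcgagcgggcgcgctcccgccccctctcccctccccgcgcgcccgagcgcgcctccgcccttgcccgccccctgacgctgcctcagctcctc
These matches are letters in a window and say nothing on binding in these tumours.

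All 10 genes are annotated as protein-coding, on hg38 in GENCODE 29, and the locations are given with the first and last base. ARNT (150809705 to 150876768) and EGLN1 (231363751 to 231425044) lie on chromosome 1, both on the minus strand. EPAS1 (46293667 to 46386703) and KDM3A (86440647 to 86492716) lie on chromosome 2, both on the plus strand, and CITED2 (139371807 to 139374620) lies on the minus strand of chromosome 6. VHL (chromosome 3, 10141008 to 10152220), EGLN2 (chromosome 19, 40798996 to 40808433) and HIF1AN (chromosome 10, 100529072 to 100559998) are on plus strands. By the median, no member stood in a block of genes that differed with it. The median log2 fold change of the 10 flanking measured genes, as many on each side, ran from -0.05 around EPAS1 to 0.075 around VHL.

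The 4 CDK4KO libraries held 30057019 to 33307113 counts, and the 4 CDK4WT libraries 27840883 to 33617977 counts. CDK4 itself stood at 111 to 134 CPM in CDK4KO and 107 to 116 CPM in CDK4WT (log2 fold change 0.12 ± 0.07, edgeR adjusted p = 0.477), so the RNA level does not check the labels. The tumour line's markers were abundant in every library, with VIM, the mesenchymal filament vimentin, at 7807 to 11080 CPM in CDK4KO and 8927 to 11510 CPM in CDK4WT. The 5 measured luminal breast markers of 8 listed differed widely in level. The keratin KRT19 was at 359 to 494 CPM in CDK4KO and 368 to 430 CPM in CDK4WT. The receptor ERBB2 was at 95.4 to 109 CPM in CDK4KO and 96.1 to 102 CPM in CDK4WT. GATA3, EPCAM and FOXA1 were low, at 5.98 to 8.32, 7.25 to 11.1 and 0.547 to 3.55 CPM over all libraries. ESR1, PGR and CDH1 were not found among the counted genes. The 12 markers of the line summed to 12530 to 17280 CPM in CDK4KO and 14490 to 17310 CPM in CDK4WT. Host RNA of similar sequence could have been counted as human, and in bulk tumours fewer cells of a type cannot be told apart from less RNA per cell. The 8 measured fibroblast and pericyte markers of 12 listed summed to 721 to 1254 CPM in CDK4KO and 824 to 1242 CPM in CDK4WT. Among them COL1A1 was at 413 to 709 CPM in CDK4KO and 483 to 683 CPM in CDK4WT. Whether these reads came from tumour or host cells was not tested.

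HIF1A, the alpha subunit with the higher RNA level, had 260, 247, 240 and 281 CPM in CDK4KO replicates 1 to 4, against 236, 234, 243 and 237 CPM in CDK4WT replicates 1 to 4. CDK4KO replicate 3 lay inside the narrow CDK4WT range and the other CDK4KO libraries above it, so the groups overlapped. The means were 257 ± 18.0 CPM in CDK4KO and 237 ± 3.90 CPM in CDK4WT (SD, n = 4 each). On the log2 scale CDK4KO stood 0.12 ± 0.06 above CDK4WT (fold change ± SE; 95% interval -0.02 to 0.25; edgeR quasi-likelihood test, adjusted p = 0.455). The interval excludes a halving as well as a doubling of HIF1A RNA. The gene (ENSG00000100644, chromosome 14, 61695513 to 61748259, hg38, plus strand) shares 5.1% of its exon bases with other annotated genes, among them the antisense HIF1A-AS1, so a small part of its count is uncertain without strand information. The 10 flanking measured genes on chromosome 14 had a median log2 fold change of 0.03.

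EPAS1, the alpha subunit best known from endothelium and from clear-cell kidney cancer, had 70.5, 57.8, 47.0 and 61.2 CPM in CDK4KO replicates 1 to 4, and 47.2, 44.8, 54.2 and 73.0 CPM in CDK4WT replicates 1 to 4. The groups overlapped over nearly their whole range, and the highest library of each genotype was CDK4KO replicate 1 and CDK4WT replicate 4. The log2 fold change was 0.11 ± 0.165 (95% interval -0.26 to 0.48; edgeR adjusted p = 0.818), 0.28 without CDK4WT replicate 4 and -0.06 without CDK4KO replicates 1 and 4. Since endothelium carries much EPAS1, the 11 measured endothelial markers of 15 listed were examined. Vessel cells of the host would be mouse cells, so only such reads of theirs as were counted as human would enter these values. The summed level of the 11 markers was 405 to 470 CPM in CDK4KO and 342 to 383 CPM in CDK4WT, with no overlap. Of the 11 markers, 10 had a positive log2 fold change, against 6933 of all 13546 genes. ROBO4 alone of them rose with DESeq2 and limma voom, where 1.26% and 1.20% of all genes did. In edgeR 0 passed at an adjusted p of 0.05 and 4 were higher at an unadjusted p of 0.05, against 6.64% of all genes. Most of the summed level came from ROBO4, ESAM and TIE1, while VWF and ERG stood at 0.54 to 1.32 CPM in every library of either genotype. ROBO4 was at 132 to 188 CPM in CDK4KO and 100 to 115 CPM in CDK4WT. ESAM was at 155 to 164 CPM in CDK4KO and 125 to 150 CPM in CDK4WT. TIE1 went the other way with overlap, at 61.1 to 84.9 CPM in CDK4KO and 82.4 to 96.7 CPM in CDK4WT. CDH5, CLDN5, EMCN and SOX17 were not found among the counted genes. The part of vessel cells in the EPAS1 level was not tested. ARNT, the shared partner, had 53.0 to 57.9 CPM in CDK4KO and 54.3 to 60.9 CPM in CDK4WT, a log2 fold change of -0.07 ± 0.06 (95% interval -0.21 to 0.06; edgeR adjusted p = 0.632). The 3 subunit RNAs thus differed by less than the spread between libraries could resolve, with 2 values above 0 and 1 below.

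**Figure D1:**
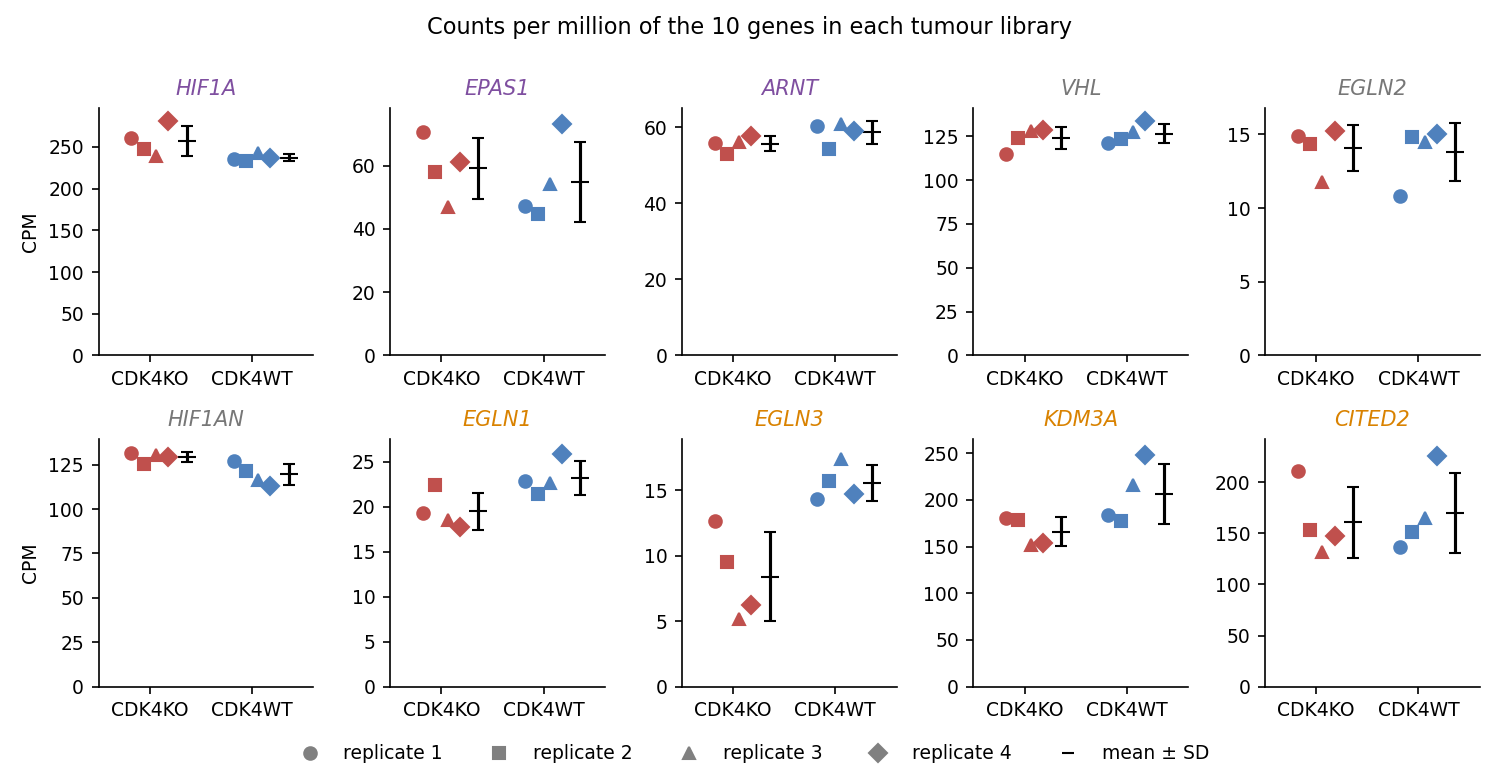
CPM (vertical axes, each from 0) of the 10 genes in the 4 CDK4KO and 4 CDK4WT libraries, with marker shapes for replicate numbers and black bars for mean ± SD; title colours mark subunits (purple), VHL, EGLN2 and HIF1AN (grey) and feedback genes (orange). EGLN3 is the gene whose 4 CDK4KO libraries, 5.195 to 12.7 CPM, all lie below the 4 CDK4WT libraries, 14.3 to 17.4 CPM.

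VHL, the substrate receptor of the ubiquitin ligase that degrades hydroxylated alpha subunits, had 115, 124, 128 and 129 CPM in CDK4KO replicates 1 to 4, against 121, 123, 127 and 134 CPM in CDK4WT replicates 1 to 4. The groups overlapped, and the log2 fold change of -0.03 ± 0.06 (95% interval -0.16 to 0.10; edgeR adjusted p = 0.878) was close to 0. HIF1AN, the asparaginyl hydroxylase, had 132, 125, 130 and 129 CPM in CDK4KO replicates 1 to 4, and 127, 121, 117 and 113 CPM in CDK4WT replicates 1 to 4. CDK4WT replicate 1 lay above CDK4KO replicate 2, and the other libraries of the genotypes did not cross. Its log2 fold change was 0.11 ± 0.05 (95% interval -0.01 to 0.23; edgeR adjusted p = 0.408), and 2.3% of its exon bases overlap NDUFB8 on the other strand. EGLN2, a prolyl hydroxylase not known to be induced by hypoxia, had 14.9, 14.3, 11.8 and 15.2 CPM in CDK4KO, and 10.8, 14.8, 14.5 and 15.01 CPM in CDK4WT, replicates 1 to 4 (log2 fold change 0.03 ± 0.12, 95% interval -0.24 to 0.30; edgeR adjusted p = 0.946). The EGLN2 level is uncertain, because 30.6% of its exon bases also belong to the read-through gene RAB4B-EGLN2.

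The feedback genes all had negative log2 fold changes, as 48.8% of all genes did, EGLN3 by the widest margin. CITED2, at -0.08 ± 0.18, was within its SE of 0, and its sign turned without CDK4WT replicate 4. EGLN3, the prolyl hydroxylase most strongly tied to HIF induction, had 12.7, 9.51, 5.195 and 6.23 CPM in CDK4KO replicates 1 to 4, against 14.3, 15.7, 17.4 and 14.7 CPM in CDK4WT replicates 1 to 4. Each CDK4KO library lay below each CDK4WT library, and CDK4KO replicate 1 came nearest to them. The reads behind these values were 371, 316, 158 and 192 counts in CDK4KO, and 450, 533, 485 and 424 counts in CDK4WT. The mean was 8.40 ± 3.39 CPM in CDK4KO and 15.5 ± 1.39 CPM in CDK4WT (SD, n = 4 each), 0.541 times the CDK4WT level in the fit. The log2 fold change of -0.89 ± 0.24 (95% interval -1.42 to -0.35) did not pass edgeR's test over all genes (adjusted p = 0.190), and 2.14% of all genes had a smaller p. It passed with DESeq2 (log2 fold change -0.89, adjusted p = 0.0121) and with limma voom and library quality weights (-1.08, adjusted p = 0.0210), and in edgeR without CDK4KO replicate 1 (-1.15, adjusted p = 0.0251). That library had the highest EGLN3 of its genotype, and without it 183 of all genes passed, against 8 with all libraries. Each other library left out singly gave EGLN3 an edgeR adjusted p of 0.222 to 0.444. EGLN3 (ENSG00000129521, chromosome 14, 33924231 to 34462774, minus strand) lies among genes with a median log2 fold change of -0.03. Of these 10 flanking measured genes 6 were negative, and as a group they did not share its difference.

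KDM3A, which removes methyl groups from histone H3 lysine 9, had 180, 178.5, 151 and 154 CPM in CDK4KO replicates 1 to 4, and 184, 177.9, 216 and 248 CPM in CDK4WT replicates 1 to 4. CDK4WT replicate 2 lay below CDK4KO replicates 1 and 2, so the groups overlapped, and the distance came from CDK4WT replicates 3 and 4 and CDK4KO replicates 3 and 4. The log2 fold change was -0.32 ± 0.11 (95% interval -0.55 to -0.08; edgeR adjusted p = 0.268), and -0.22 without CDK4WT replicate 4. EGLN1, the main prolyl hydroxylase of HIF-1 alpha in oxygenated cells, had 19.4, 22.4, 18.5 and 17.7 CPM in CDK4KO replicates 1 to 4, against 22.8, 21.4, 22.7 and 25.8 CPM in CDK4WT replicates 1 to 4. CDK4KO replicate 2 lay above CDK4WT replicate 2, and the other CDK4KO libraries lay below all CDK4WT libraries. The log2 fold change was -0.25 ± 0.09 (95% interval -0.45 to -0.05; edgeR adjusted p = 0.291), and 7.09% of all genes had a smaller p.

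CITED2 stood nearer to 0 than the other feedback genes. It had 211, 153, 131 and 148 CPM in CDK4KO replicates 1 to 4, and 137, 151, 165 and 226 CPM in CDK4WT replicates 1 to 4. The groups overlapped, and the highest libraries were again CDK4KO replicate 1 and CDK4WT replicate 4, as for EPAS1. The log2 fold change was -0.08 ± 0.18 (95% interval -0.49 to 0.33; edgeR adjusted p = 0.895), 0.09 without CDK4WT replicate 4 and -0.24 without CDK4KO replicate 1. The same libraries also had the highest VIM, at 11080 CPM in CDK4KO replicate 1 and 11510 CPM in CDK4WT replicate 4, and the lowest TMM factors, at 0.971 and 0.976, and the part of whatever sets them apart was not tested. With both left out, CITED2 had a log2 fold change of -0.07 and EPAS1 of 0.18.

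**Figure D2:**
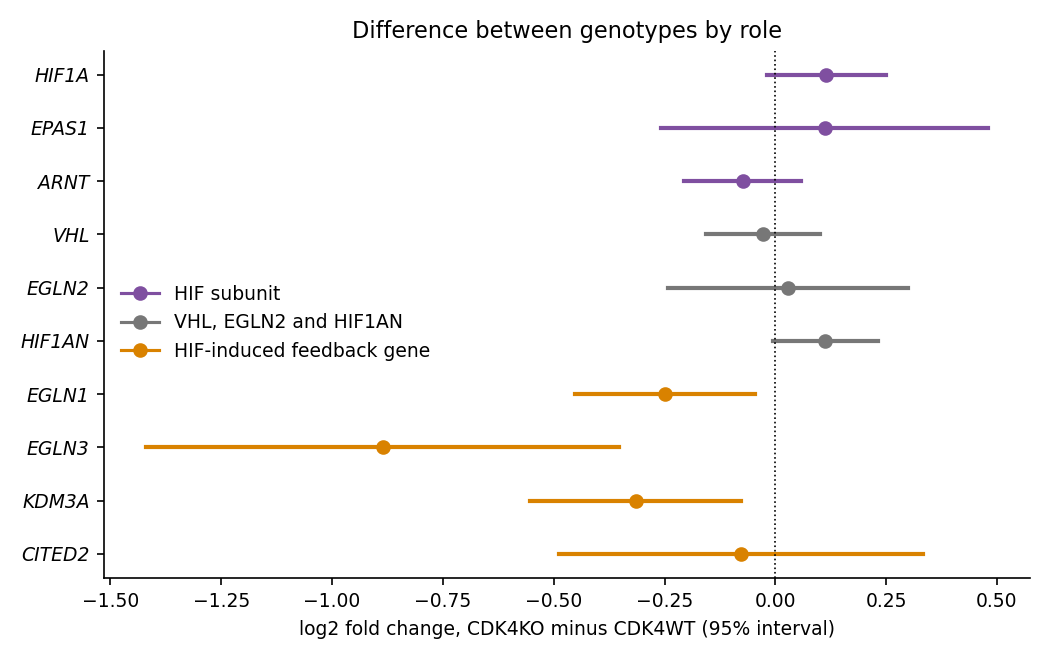
log2 fold change, CDK4KO minus CDK4WT (horizontal axis), of each gene from edgeR, with points for the estimate and lines for the 95% interval, coloured by role. The intervals of EGLN1, EGLN3 and KDM3A lie below 0, and those of the other 7 genes cross it.

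Of the 10 genes, 0 passed edgeR at an adjusted p of 0.05, where 0.0591% of all genes passed (0.0443% higher and 0.0148% lower in CDK4KO). With DESeq2 1 passed and with limma voom 1, EGLN3 in each, lower in CDK4KO. Over all genes 2.33% passed with DESeq2 (1.26% higher and 1.07% lower) and 2.10% with limma voom (1.20% higher and 0.901% lower). At an unadjusted p of 0.05, 3 of the 10 passed in edgeR, EGLN1, EGLN3 and KDM3A, against 13.0% of all genes, and all 3 were lower in CDK4KO, against 6.33% of all genes lower and 6.64% higher. Libraries of the genotypes did not overlap in 1 of the 10, EGLN3, against 7.68% of all genes (3.87% with CDK4KO above and 3.81% with CDK4KO below), so that this count is near the background. Negative log2 fold changes were found in 6 of 10, against 48.8% of all genes. The median over all genes was 0.004, and over the 4 feedback genes it was -0.28, over the 3 subunits 0.11 and over VHL, EGLN2 and HIF1AN 0.03.

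The subunits and the feedback genes were then set against each other inside each library, where the scaling of the library cancels. The mean log2 CPM of the 4 feedback genes minus that of the 3 subunits was -0.87, -0.89, -1.20 and -1.32 in CDK4KO replicates 1 to 4, and -0.71, -0.59, -0.60 and -0.57 in CDK4WT replicates 1 to 4. Every CDK4KO library lay below every CDK4WT library, and the CDK4KO libraries were the more spread, at -1.07 ± 0.23 against -0.62 ± 0.06 in CDK4WT (SD, n = 4 each). The difference of -0.45 on the log2 scale was made up of -0.40 for the feedback genes and 0.05 for the subunits. It was -0.265 without EGLN3. These are descriptions with no test, since the genes were chosen with earlier results of these data known. The feedback mean alone ran over 5.22 to 5.79 in CDK4KO libraries and over 5.75 to 6.09 in CDK4WT libraries, an overlap by CDK4KO replicate 1. The subunit mean, 6.43 to 6.66 in CDK4KO against 6.37 to 6.66 in CDK4WT, overlapped over most of its range.

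**Figure D3:**
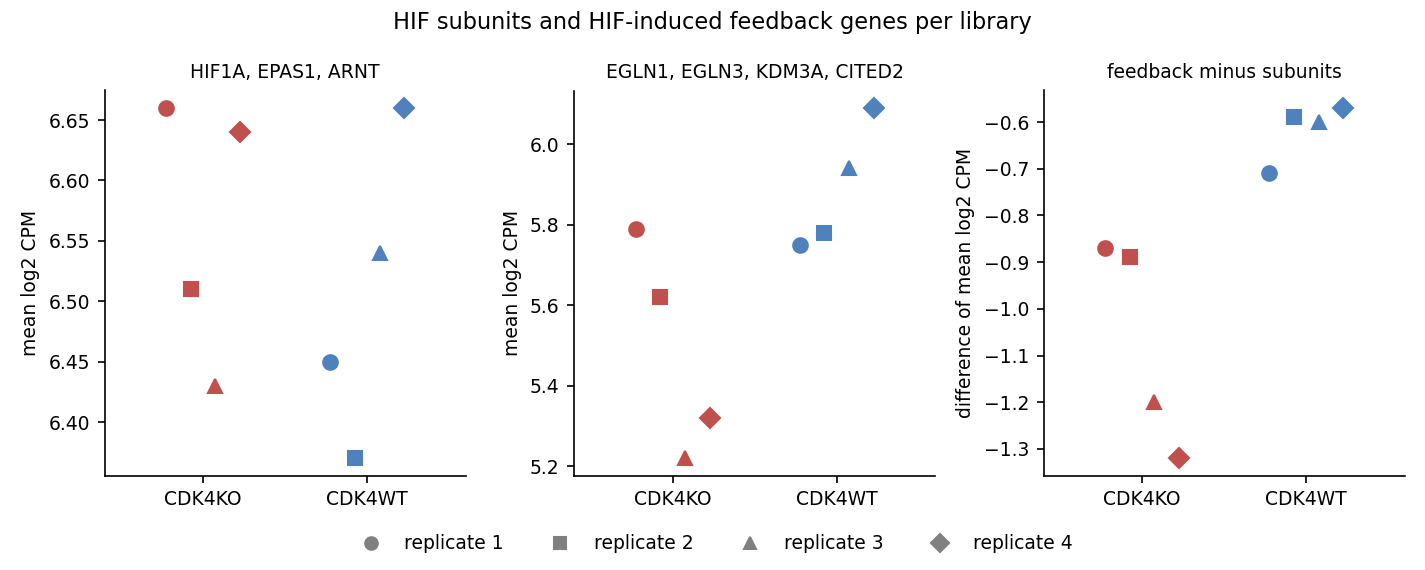
Mean log2 CPM per library (vertical axes, not from 0) of the 3 subunits and of the 4 feedback genes, and their difference, with marker shapes for replicate numbers. In the difference, the CDK4KO libraries lie between -1.32 and -0.87 and the CDK4WT libraries between -0.71 and -0.57.

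Levels of different genes were compared per length, as CPM per kilobase of merged exon in GENCODE 29. CITED2 was highest at 63.4 ± 13.7 CPM per kilobase in CDK4KO and 66.9 ± 15.4 in CDK4WT, followed by HIF1A at 49.9 ± 3.50 in CDK4KO and 46.0 ± 0.757 in CDK4WT (SD, n = 4 each). The ranges of these 2 genes over the 8 libraries overlapped, at 51.8 to 89.0 for CITED2 and 45.4 to 54.5 for HIF1A. VHL came next at 27.2 to 31.7 CPM per kilobase over all libraries, then KDM3A at 11.3 to 18.5, with no overlap between the 2 genes. ARNT, HIF1AN and EPAS1 lay together at 6.14 to 9.999 CPM per kilobase over all libraries and could not be ordered. EGLN1 was at 2.68 ± 0.281 CPM per kilobase in CDK4KO and 3.19 ± 0.259 in CDK4WT, above the other prolyl hydroxylases in each library. EGLN3, at 1.14 ± 0.461 CPM per kilobase in CDK4KO and 2.11 ± 0.188 in CDK4WT, and EGLN2, at 2.14 ± 0.238 and 2.10 ± 0.302 in the same groups, were the lowest of the set. Merged exons count every annotated transcript, so genes with long rare exons appear lower on this scale than their main transcript would.

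EGLN3 made up a smaller mean share of the prolyl hydroxylase RNA in CDK4KO. Of the summed EGLN1, EGLN2 and EGLN3 level per kilobase, EGLN3 held 25.9%, 19.7%, 14.0% and 15.1% in CDK4KO replicates 1 to 4, and 28.8%, 29.1%, 30.8% and 25.5% in CDK4WT replicates 1 to 4. CDK4KO replicate 1 lay just above CDK4WT replicate 4, and the other CDK4KO libraries lay below all CDK4WT libraries. EGLN1 held 45.3% ± 4.50 in CDK4KO and 43.2% ± 3.32 in CDK4WT, as means ± SD of 4 libraries each. EGLN2 held 33.3% to 41.4% in CDK4KO and 24.5% to 30.7% in CDK4WT, without overlap but with the uncertainty of its read-through partner. A share also rises when the other levels of the sum are lower. The EGLN2 level itself was 2.14 ± 0.238 CPM per kilobase in CDK4KO and 2.10 ± 0.302 in CDK4WT. Mean shares of the alpha subunits were alike, with HIF1A at 86.1% ± 1.63 of the HIF1A and EPAS1 sum in CDK4KO and 86.1% ± 2.7 in CDK4WT.

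**Figure D4:**
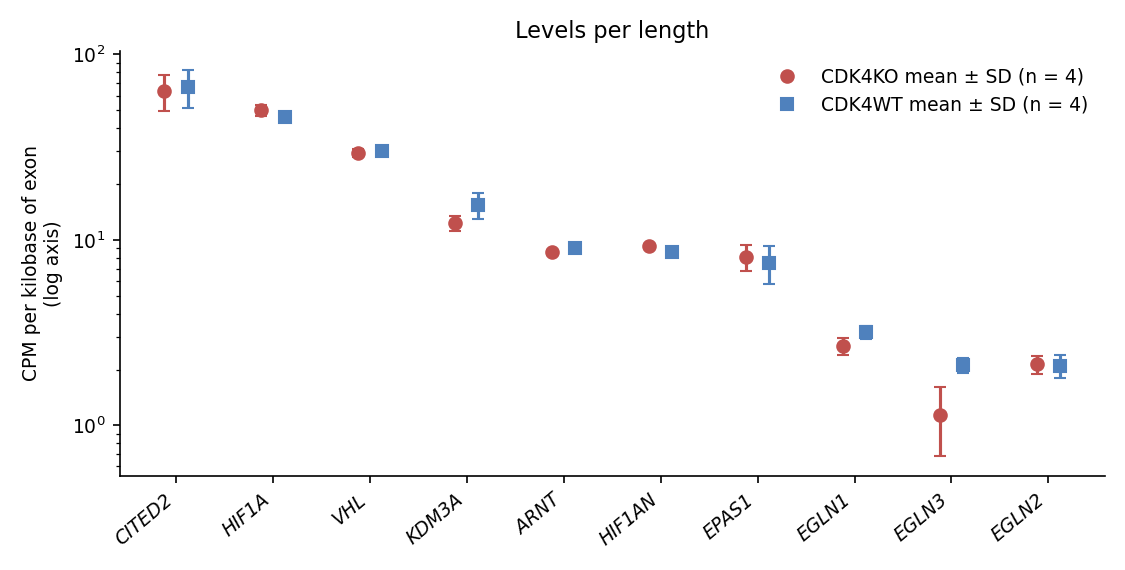
Mean CPM per kilobase of merged exon (vertical log axis) with SD for each gene, CDK4KO as circles and CDK4WT as squares, 4 libraries each, ordered by the CDK4WT mean. EGLN3 is the gene whose 2 means lie furthest apart, at 1.14 in CDK4KO and 2.11 in CDK4WT.

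Genes outside the set that HIF is known to induce mostly stood lower in CDK4KO, as 3 of the feedback genes did. This list too was chosen with earlier results of these data known, so its counts are descriptions with no test of the list. Of 39 measured targets, 38 had a negative log2 fold change, against 48.8% of all genes. The median of the 39 targets was -0.41 (-0.27 at the weakest, without CDK4WT replicate 4), against 0.004 over all genes. None of the targets passed edgeR at an adjusted p of 0.05, and 27 were lower at an unadjusted p of 0.05 (6.33% of all genes). With DESeq2 17 fell (1.07% of all genes) and with limma voom 9 fell (0.901% of all genes). In 13 of the 39, all CDK4KO libraries lay below all CDK4WT libraries, against 3.81% of all genes. The 4 with the smallest p were the glycolytic regulators PFKFB4 and PFKFB3, at -0.77 ± 0.13 and -0.76 ± 0.13, the carbonic anhydrase CA9, at -1.26 ± 0.21, and the hexokinase HK2, at -0.65 ± 0.12 (edgeR adjusted p = 0.0634, 0.0634, 0.0648 and 0.0749). EGLN3 lay inside this range of differences and EGLN1 and KDM3A nearer to 0 than these 4.

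The order of the libraries was not the same for every feedback gene. The mean log2 CPM of the targets was 7.11, 6.96, 6.87 and 6.76 in CDK4KO replicates 1 to 4, and 7.14, 7.22, 7.39 and 7.63 in CDK4WT replicates 1 to 4. CDK4WT replicate 4 was the highest library for the targets, KDM3A, EGLN1 and CITED2, whereas for EGLN3 it was CDK4WT replicate 3, with CDK4WT replicates 2 and 4 after it. Among CDK4KO libraries replicate 1 was highest for the targets, EGLN3, KDM3A and CITED2, and replicate 2 for EGLN1.

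Partners and cofactors of the pathway were counted list by list. Of 7 measured paralogues of HIF and ARNT, 0 passed edgeR at an adjusted p of 0.05 and 4 passed at an unadjusted p of 0.05 (13.0% of all genes), 3 higher (6.64% of all genes) and 1 lower (6.33%). DESeq2 called 1, ARNT2 (2.33% of all genes), and limma voom 0 (2.10%). ARNT2, an ARNT paralogue known mostly from neurons, was low throughout, at 0.794 ± 0.401 CPM in CDK4KO and 2.49 ± 1.22 CPM in CDK4WT (log2 fold change -1.63 ± 0.41, edgeR adjusted p = 0.161). CDK4KO replicate 2, at 1.38 CPM, lay above CDK4WT replicate 4, at 1.21 CPM. SIM2, another partner of ARNT, stood at 0.25 ± 0.10 on the log2 scale (edgeR adjusted p = 0.307). It had 8.89 to 10.9 CPM in CDK4KO and 7.91 to 8.46 CPM in CDK4WT with no overlap, as 3.87% of all genes had with CDK4KO above. The circadian factors BMAL2 and CLOCK stood at 0.34 ± 0.14 and 0.23 ± 0.10. Of the 10 genes of the VHL ubiquitin ligase, its E2 enzymes and the deubiquitinases USP20 and USP33, 0 passed at either threshold in edgeR, 0 with DESeq2 and 0 with limma voom, and the median was -0.03. The ring-finger subunit RBX1, the adaptor elongin C (ELOC), USP20 and USP33 stood at -0.13 ± 0.07, -0.09 ± 0.06, 0.07 ± 0.06 and -0.06 ± 0.06.

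Of 17 coactivators, chaperones and turnover factors, 0 passed edgeR at an adjusted p of 0.05, and 1 was higher and 1 lower at an unadjusted p of 0.05, against 13.0% of all genes in either direction. CITED4, a relative of CITED2 that also binds p300 and CBP, fell with DESeq2 and limma voom, as 1.07% and 0.901% of all genes did. It had 7.83, 6.08, 5.95 and 6.26 CPM in CDK4KO replicates 1 to 4, and 8.32, 9.12, 9.76 and 9.22 CPM in CDK4WT replicates 1 to 4 (log2 fold change -0.48 ± 0.12, edgeR adjusted p = 0.140). The genotypes did not overlap, as 3.81% of all genes did not with CDK4KO below. EP300 and CREBBP, which encode p300 and CBP, stood each at 0.13 ± 0.06 and the factor SP1 at 0.14 ± 0.07. Of 34 further oxygenases that use 2-oxoglutarate, 0 passed edgeR at an adjusted p of 0.05, 0 passed DESeq2 and 0 limma voom, 5 were lower (6.33% of all genes) and 0 higher (6.64%) at an unadjusted p of 0.05, and the median was -0.03. They include the histone demethylase KDM5B at -0.29 ± 0.08, the DNA oxygenase TET2 at -0.19 ± 0.08 and the collagen prolyl hydroxylases P4HA1 and P4HA2 at -0.26 ± 0.11 and -0.23 ± 0.09, the last 2 also in the list of HIF targets. Of 16 enzymes that make or use 2-oxoglutarate, succinate or fumarate, which feed or inhibit these oxygenases, 0 passed edgeR at an adjusted p of 0.05, and 1 was higher and 2 were lower at an unadjusted p of 0.05, against 13.0% of all genes in either direction. DESeq2 called 0 of them (2.33% of all genes) and limma voom 1, SDHC (2.10%). The succinate dehydrogenase subunit SDHC and the isocitrate dehydrogenase IDH2 stood at -0.33 ± 0.10 and -0.39 ± 0.12, and OGDH, which consumes 2-oxoglutarate, at 0.185 ± 0.07.

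By root-mean-square difference of log2 CPM over the 8 libraries, each gene centred on its mean, the genes most like EGLN3 were the non-coding RNAs RMRP, LINC02506 and EDIL3-DT, at 0.178, 0.225 and 0.237. RMRP is the RNA of an RNA-processing ribonuclease and was low, at 1.59 ± 0.799 CPM in CDK4KO and 2.99 ± 0.291 CPM in CDK4WT. Those most like HIF1A were CUEDC1, SRGAP2B and CAMTA1, at 0.035, 0.037 and 0.040. A gene that varies little finds close matches easily on this measure, so the 2 sets of values are not comparable.

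**Figure D5:**
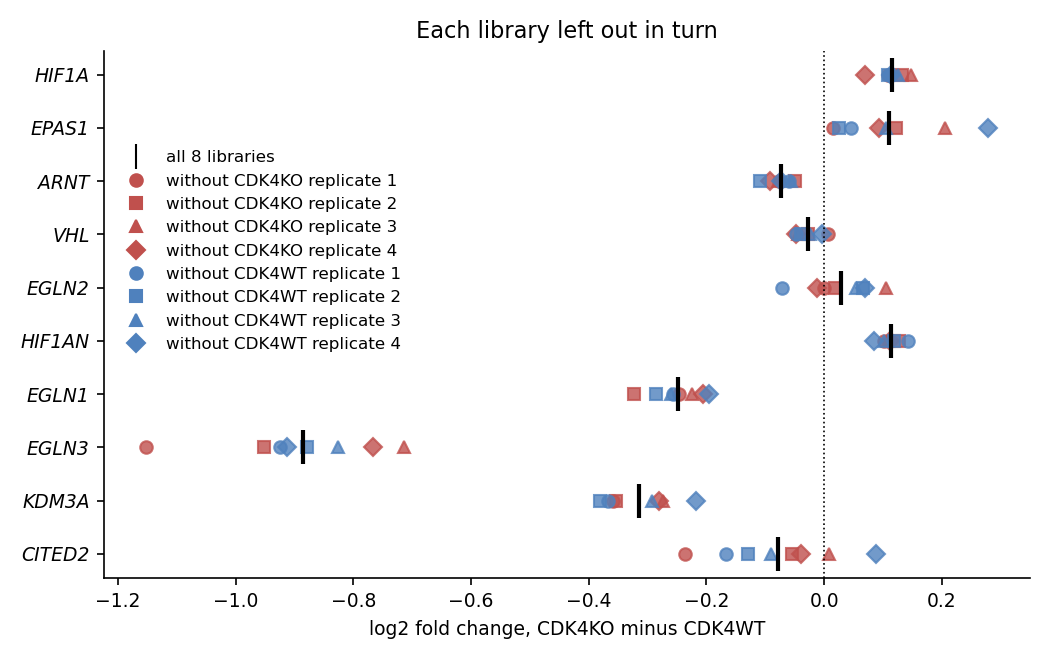
log2 fold change, CDK4KO minus CDK4WT (horizontal axis), of each gene with all 8 libraries (black bars) and with each library left out (red for CDK4KO, blue for CDK4WT, shapes for replicate numbers). EGLN1, EGLN3, KDM3A and ARNT stay below 0 and HIF1A, HIF1AN and EPAS1 above 0 in all 8 fits, while VHL, EGLN2 and CITED2 cross 0.

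Leaving out each library in turn moved EGLN3 between -1.15 and -0.71 on the log2 scale, the weakest without CDK4KO replicate 3, with adjusted p between 0.0251 and 0.444 in edgeR. KDM3A moved between -0.38 and -0.22 and EGLN1 between -0.32 and -0.20. HIF1A moved between 0.07 and 0.15, EPAS1 between 0.02 and 0.28 and ARNT between -0.11 and -0.05. The spread between libraries differed among the genes: the biological coefficient of variation was 23.5% for EGLN3, 18.0% for CITED2 and 16.4% for EPAS1, and 6.27% to 12.7% for the other 7 genes, beside a common value of 11.7%.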

How the data were processed

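Trizol RNA from 8 tumours went into mRNA libraries, as the labels' protocols state. What the authors deposited is a single table of raw, whole-number counts for each Ensembl gene. The submitters' processing notes name cutadapt, STAR 2.7.11a, featureCounts 2.0.4, DESeq2 1.46.0 and hg38; how strand and host reads were handled, and with which annotation release, is not given in the sources used here. Symbols were found for 13524 of 13546 identifiers and GENCODE 29 (same build) coordinates for 13455.

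Genotypes were compared over all 13546 genes in R 4.3.3 with edgeR 4.0.16 (TMM, filterByExpr, which removed 0 genes, robust dispersions, quasi-likelihood test, Benjamini-Hochberg adjustment, threshold 0.05). Each SE is implied by the F statistic, and log2 CPM used a prior count of 2. DESeq2 1.42.0, limma 3.58.1 (voom with quality weights), other scalings and filters, a replicate block and left-out libraries were alternatives. The steps were tested on simulated data. Every count of the 10 genes lay between 158 and 8656, so counting error is small beside the spread of tumours. The 10 genes and all lists were chosen with earlier results of these data known. Of each list, up to 4 genes with the smallest p are named, except 1 that is not reported here. SE and SD stand for standard error and standard deviation. Marker lists had medians of -0.08 (12 genes of the line), 0.06 (5 luminal), 0.19 (11 endothelial), 0.01 (8 fibroblast and pericyte), -0.06 (6 leukocyte) and -1.21 (3 muscle and fat). The 3 muscle and fat genes, of 10 listed, were low and overlapped between the genotypes. DES and PLIN1 stood at 0.684 to 3.89 CPM and ACTA1 at 3.18 to 23.0 CPM over all libraries.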

Additional observations from a re-analysis of the deposited data

Results flagged for a closer look

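EGLN2 in CDK4WT replicate 1 stood far from the other libraries of its genotype, at 10.8 CPM against 14.5 to 15.01 CPM, a gap of 0.876 of the group's range. It was the only such case among 24 groups of 4 libraries examined, where chance gives about 1 in 20. Without that library the log2 fold change of EGLN2 was -0.07.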

How the results depend on the processing

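The log2 fold changes of HIF1A, ARNT, HIF1AN, EGLN1 and KDM3A kept their sign and stayed short of the threshold under 20 of 20 alternatives, and the median of the HIF targets stayed between -0.48 and -0.27. EGLN3 ran from -1.18 to -0.71 and passed the threshold under 5 of 20: with DESeq2 (-0.89) and limma voom (-1.08), without CDK4KO replicate 1 (-1.15), without CDK4KO replicates 1 and 4 (-1.07) and without CDK4KO replicate 1 and CDK4WT replicate 4 (-1.18, a choice made after seeing the data). Values that turned sign were EPAS1 without CDK4KO replicates 1 and 4 (-0.062), VHL without CDK4KO replicate 1 and CDK4WT replicate 4 (0.032), and EGLN2 with limma voom (-0.011) and without CDK4KO replicates 1 and 4 (-0.076); with single libraries left out VHL ran from -0.048 to 0.006, EGLN2 from -0.072 to 0.105 and CITED2 from -0.237 to 0.088. The difference between feedback genes and subunits ran from -0.52 to -0.37 with single libraries left out and was -0.265 without EGLN3. The cause of these shifts was not tested.

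Over all genes, 8 passed, against 14 with library size only, 19 with a mean CPM of at least 5, 20 without the genes of the host-cell marker lists, 315 with DESeq2, 285 with limma voom, 447 without CDK4KO replicates 1 and 4, 147 without CDK4KO replicate 1 and CDK4WT replicate 4, and 0 to 183 with single libraries left out. HIF targets past the threshold numbered 0, against 2 with library size only, 17 with DESeq2, 9 with limma voom, 2 without CDK4KO replicates 1 and 4, 6 without CDK4KO replicate 1 and CDK4WT replicate 4, and 0 to 6 with single libraries left out. Same-numbered libraries of the genotypes did not deviate together (correlations -0.031, -0.014, 0.003 and 0.194), so the numbers were not taken as pairs; with a replicate block 13 genes and 1 HIF target passed, and no call among the 10 genes changed.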
